A study of Homo sapiens with 6 samples.

Results

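The genes described here are 33 genes of the integrated stress response and the unfolded protein response, taken by gene name from the 31016 genes of the deposited expression table. All 33 were found once each, and all 33 passed the filter on low counts, which kept 18265 genes. They comprise the transcription factor ATF4 itself, 17 of its targets and 11 targets of the factors ATF6 and XBP1. The remaining 4 are the sensors of the unfolded protein response (UPR) EIF2AK3, ERN1 and ATF6, with the factor XBP1. The figures label these 4 as UPR sensors. RNA came from DLD-1 cells, an established human colorectal adenocarcinoma line. One group of 3 libraries received TGF-β, a growth factor that drives epithelial cells towards a mesenchymal state (TGFb 1 to 3). The other 3 libraries received TGF-β together with TFA, a flavone extract of Abelmoschus manihot, a plant of the mallow family (TGFb_TFA 1 to 3). Treatment was labelled as 24 hours for library 1, 25 for library 2 and 26 for library 3 in both groups, and all libraries share the TGF-β. These hours rise with the library number, and whether they are true times or a numbering slip could not be settled from the labels. The study looked at migration and apoptosis of these cells under TFA, and each difference below is the TFA group over the group without TFA. No source used here says whether the 3 libraries of a group came from separate cultures, so p-values measure only the spread between these libraries.

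Proteins that misfold in the endoplasmic reticulum (ER) are sensed by PERK (the product of EIF2AK3), IRE1 (ERN1) and ATF6. PERK is also one of the kinases that phosphorylate the translation factor eIF2, together with kinases that respond to amino acid shortage, haem shortage and double-stranded RNA. That phosphorylation slows translation in general and favours translation of the ATF4 mRNA. ATF4 then raises genes for amino acid uptake and synthesis and, under lasting stress, DDIT3, the gene of the factor CHOP. IRE1 splices the XBP1 mRNA and ATF6 is cleaved in the Golgi, and both then raise ER chaperones and genes of ER-associated degradation. Because these steps act on translation, splicing and cleavage, gene-level RNA of ATF4, XBP1 and ATF6 does not measure their activity, and the RNA of their targets is the nearer readout.

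Exact copies of 3 promoter elements known for these factors are shown for the genes that hold them, since the factors act on their targets through such sites. RefSeq promoters (GRCh38.p14) were matched by symbol for 31 of the 33 genes, and the 250 bases upstream of each annotated start were searched on both strands. The ER stress response element (ERSE) was searched as CCAAT and CCACG with 9 bases between them, and ERSE-II as ATTGG and CCACG with 1 base between them. The element bound by C/EBP and ATF factors was searched as TGATG, any 1 base, and AA, and the core of the XBP1 and ATF6 element UPRE as TGACGTG. Capitals mark the element, each sequence runs 5′ to 3′ on the strand of its gene, and windows that touch an annotated exon are cut short.
CALR, ERSE on the opposite strand (chr19:12938364-12938422, plus): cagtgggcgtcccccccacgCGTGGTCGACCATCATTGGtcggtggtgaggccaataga
CRELD2, ERSE on the opposite strand (chr22:49918534-49918592, plus): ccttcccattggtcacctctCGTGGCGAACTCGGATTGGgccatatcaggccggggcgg
PDIA6, ERSE (chr2:10812848-10812876, minus): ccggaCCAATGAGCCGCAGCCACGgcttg
CANX, ERSE (chr5:179698773-179698801, plus): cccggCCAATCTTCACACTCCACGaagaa
XBP1, ERSE (chr22:28800598-28800626, minus): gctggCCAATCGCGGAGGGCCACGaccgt
HERPUD1, ERSE-II (chr16:56932020-56932040, plus): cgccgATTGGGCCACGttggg
HYOU1, ERSE-II on the opposite strand, far copy (chr11:119057360-119057410, minus): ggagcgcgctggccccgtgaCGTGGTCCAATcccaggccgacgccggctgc
HYOU1, ERSE-II on the opposite strand, near copy (chr11:119057254-119057304, minus): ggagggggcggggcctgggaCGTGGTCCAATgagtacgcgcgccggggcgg
SDF2L1, ERSE-II on the opposite strand (chr22:21642094-21642144, plus): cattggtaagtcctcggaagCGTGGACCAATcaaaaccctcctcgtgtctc
HERPUD1, C/EBP-ATF element on the opposite strand (chr16:56931946-56931993, plus): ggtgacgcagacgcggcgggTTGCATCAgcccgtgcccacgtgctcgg
ASNS, C/EBP-ATF element (chr7:97872464-97872481, minus): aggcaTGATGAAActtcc
CHAC1, C/EBP-ATF element on the opposite strand (chr15:40953257-40953274, plus): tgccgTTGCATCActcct

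An exact ERSE stood upstream of 4 of the 11 ATF6 and XBP1 targets (CALR, CANX, CRELD2 and PDIA6) and of XBP1 itself. Of all 35093 promoters searched, 0.0741% held one. ERSE-II stood upstream of another 3 of these targets (HERPUD1, HYOU1 and SDF2L1), against 0.0513% of all promoters. HYOU1 held ERSE-II in 2 copies, and its far copy overlaps the UPRE core, which 1.68% of all promoters held. None of the 15 ATF4 targets with a promoter in the table held an ERSE, an ERSE-II or a UPRE core. The C/EBP-ATF element stood upstream of ASNS and CHAC1 among these 15 and of HERPUD1 among the ATF6 and XBP1 targets, against 3.15% of all promoters. SEL1L, EDEM1, PDIA4 and MANF among the ATF6 and XBP1 targets held none of the searched elements, like most ATF4 targets. A gene was counted if any of its promoters held the element (45 promoters for the 31 genes), while the percentages are per promoter, so the units differ. A match is a description of the letters only, and ATF4 elements that lie in introns or farther upstream were not searched.

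Total estimated counts were 60361756 to 68745953 per library. Of the 11 colorectal epithelial markers in the table, 8 had a mean of at least 1 FPKM (fragments scaled to transcript length and library total), among them EPCAM at 200 FPKM, KRT20 and CDX2. VIL1, LGALS4 and GPA33 lay below 1 FPKM. The summed FPKM of 9 fibroblast markers was 0.0377 to 0.352 with TGF-β and 0.456 to 2.38 with TFA, and that of 6 endothelial markers was 0.0832 to 0.24 and 0.366 to 0.47. The 5 haematopoietic markers in the table summed to 0.36 to 0.488 FPKM with TGF-β and 0.346 to 0.63 FPKM with TFA, so these groups overlapped. The fibroblast markers DCN, LUM and COL3A1 were listed at 0 in all TGF-β libraries and in TGFb_TFA 1. In bulk RNA, fewer cells of a type and less RNA per cell cannot be told apart. TGFb_TFA 3 stood apart by transcript length. Measured as log2 CPM (depth-scaled counts) against each gene's 6-library mean, the median there was 0.42 for the shortest 10% of genes and -0.42 for the longest 10%. TGFb 2 leaned the same way less far, at 0.11 and -0.18, and the remaining libraries leaned the opposite way.

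None of the 33 genes was called with TFA by the edgeR quasi-likelihood test at an adjusted p under 0.05, where 0.0109% of the 18265 tested genes were called (CYP1A1 and STBD1, both higher). DESeq2 called none of the 33 either, against 0.0712% of the genes it tested (0.0603% higher and 0.011% lower). At an unadjusted p under 0.05, GDF15 alone passed in edgeR, against 1.83% of all tested genes (1.07% higher and 0.761% lower). Fitted log2 fold changes ran from -0.28 (HERPUD1) to 0.48 (GDF15), with 15 above 0 and 18 below, where 51.9% of all tested genes were fitted above 0. The median of the 17 ATF4 targets was -0.01 and that of the 11 ATF6 and XBP1 targets was -0.09, beside 0.01 for all tested genes. Every one of the 33 genes had a 95% interval that lay within a 2-fold difference either way, which held for 63.9% of all tested genes, and 23 had one within 1.5-fold, against 35.0%. These counts depended on the libraries: within 1.5-fold there were 15 without TGFb 1 or TGFb_TFA 1, 14 without TGFb_TFA 2 and 27 without TGFb_TFA 3, and within 2-fold 31 without TGFb 2. Interval width follows the standard error (SE), with a median of 0.15 for the 33 genes and 0.25 for all tested genes. The higher shares among the 33 therefore do not show that TFA changed them less than other genes. The level of each gene in each library and the fitted differences with their intervals are plotted.

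**Figure D1:**
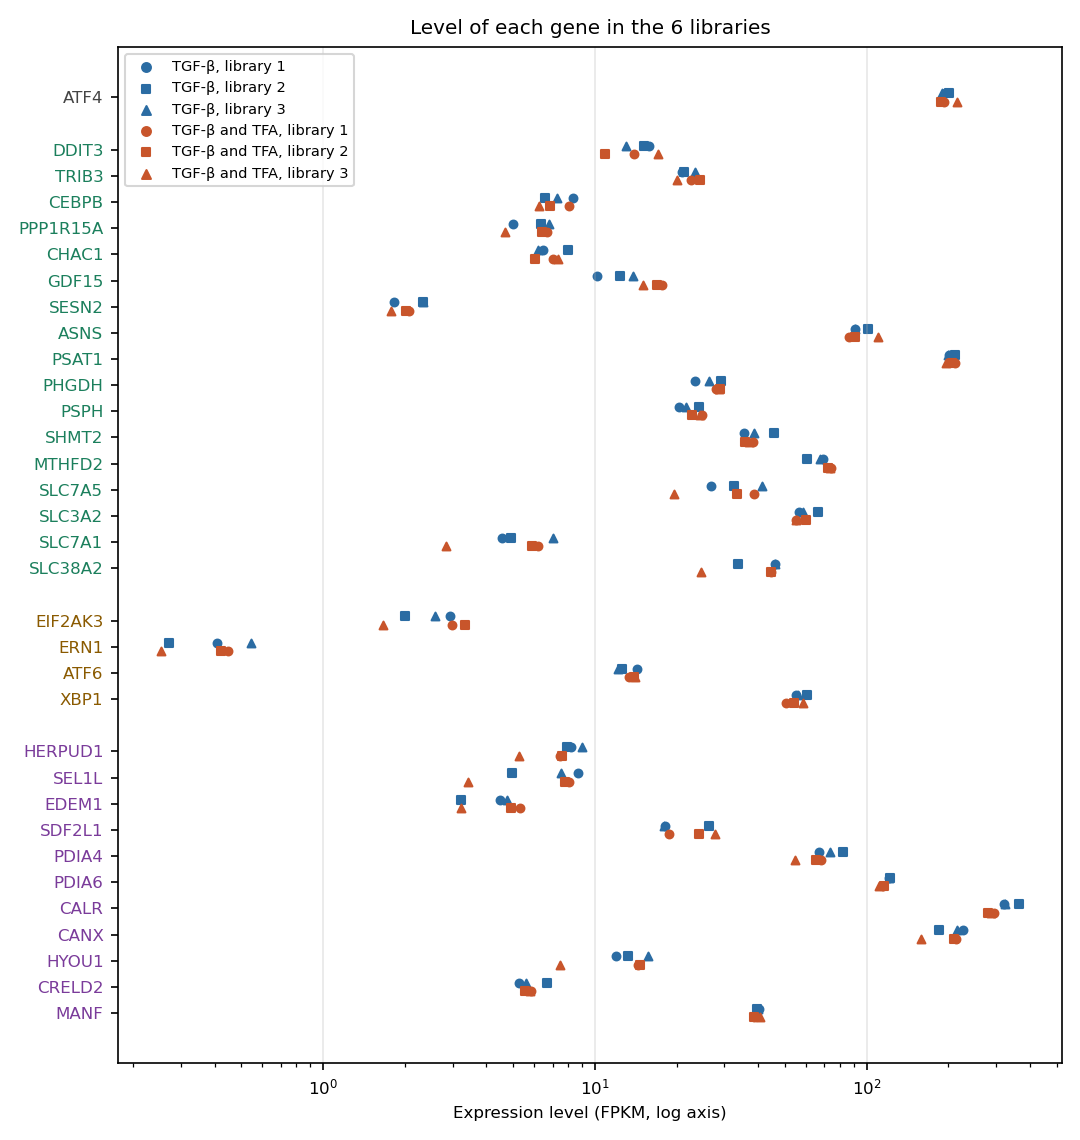
Level of the 33 genes in FPKM (horizontal log axis) in each of the 6 libraries, TGF-β in blue and TGF-β with TFA in orange, with gene names coloured as ATF4 (grey), ATF4 targets (green), UPR sensors (brown) and ATF6 and XBP1 targets (purple). Mean levels span from 0.392 FPKM (ERN1) to 312 FPKM (CALR). The groups overlap in every row but those of GDF15, MTHFD2, HERPUD1, PDIA6 and CALR. Of all tested genes, 7.95% were without overlap in FPKM. Some rows spread widely, such as SEL1L at 3.41 to 8.67 FPKM.

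**Figure D2:**
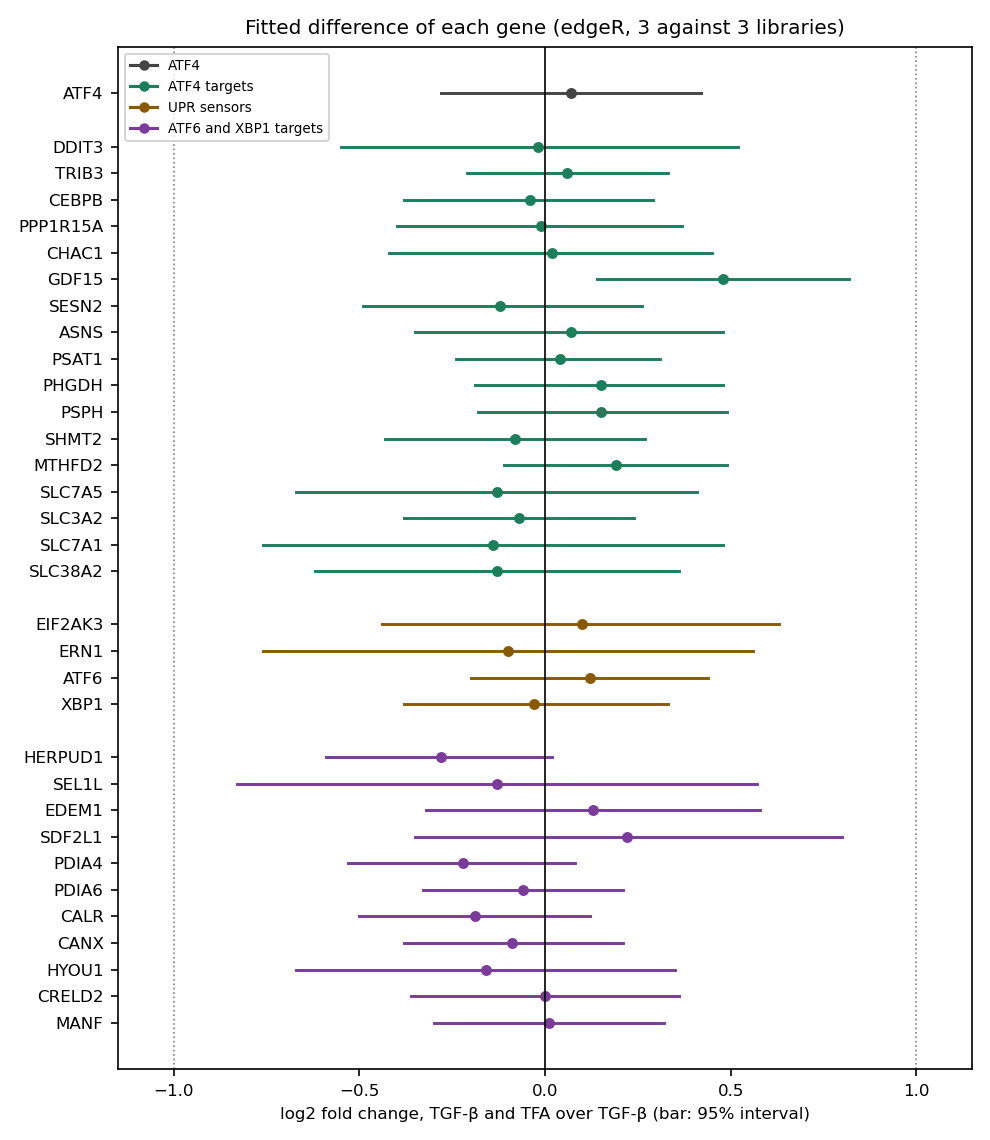
Fitted log2 fold change of each of the 33 genes, TGF-β with TFA over TGF-β, with its 95% interval from edgeR (3 against 3 libraries); dotted lines mark a 2-fold difference. All intervals stay between the dotted lines, and only that of GDF15 leaves out 0.

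ATF4, the transcription factor at the centre of the integrated stress response, was among the most abundant RNAs of the set. Its level was 195, 201 and 189 FPKM in TGFb 1 to 3 and 192, 188 and 216 FPKM in TGFb_TFA 1 to 3. The groups overlapped, and the highest value was in TGFb_TFA 3. The fitted log2 fold change was 0.07 (95% interval -0.28 to 0.42), and it was -0.08 without TGFb_TFA 3. ATF4 (ENSG00000128272) lies on chromosome 22 from 39519672 to 39522683 on the plus strand (GRCh38, positions as deposited).

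Among the ATF4 targets that act in transcription and feedback, no group separated from the other. DDIT3, which encodes the pro-apoptotic factor CHOP, was at 15.9, 15.2 and 13 FPKM with TGF-β and at 14, 10.9 and 17.1 FPKM with TFA. Both the lowest and the highest of these values were in TFA libraries, and the fitted difference was -0.02 (interval -0.55 to 0.52). For DDIT3 this value was -0.28 (interval -0.68 to 0.11) without TGFb_TFA 3 and 0.15 without TGFb_TFA 2. DDIT3 shares 355 of its 1307 exon bases with the methionyl-tRNA synthetase gene MARS1 on the opposite strand (log2 fold change -0.15, SE 0.15), and no source used here states whether the counting was by strand. TRIB3, a pseudokinase that feeds back on ATF4 and CHOP, was at 20.9, 21.3 and 23.4 FPKM against 22.6, 24.3 and 20 FPKM with TFA. Its fitted difference was 0.06 (interval -0.21 to 0.33). CEBPB, a partner factor of ATF4, had -0.04 (interval -0.38 to 0.29). PPP1R15A, the GADD34 subunit that directs dephosphorylation of eIF2, had -0.01 (interval -0.40 to 0.37).

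The stress effectors held the gene with the largest fitted difference of the set. GDF15, a secreted cytokine of cell stress that p53 also controls, was at 10.2, 12.4 and 13.8 FPKM in TGFb 1 to 3. It was at 17.7, 16.9 and 15.1 FPKM in TGFb_TFA 1 to 3, so every TFA library lay above every TGF-β library. The means were 12.1 ± 1.81 and 16.6 ± 1.31 FPKM (SD, n = 3). This gave a fitted log2 fold change of 0.48 with an SE of 0.15 (95% interval 0.14 to 0.82), or 1.39-fold. Its p was 0.0116 unadjusted and 0.9997 after Benjamini-Hochberg adjustment in edgeR's quasi-likelihood test, so GDF15 was not called. In all 17 alternative settings the fitted value of GDF15 stayed between 0.34 and 0.54 with an unadjusted p under 0.05, and in none did the adjusted p go below 0.871. Summed fibroblast and endothelial markers also lay higher in each TFA library, at no more than 2.38 FPKM, while summed haematopoietic markers overlapped between groups. The part of these markers in the difference of GDF15 was not tested. GDF15 (ENSG00000130513) lies on chromosome 19 from 18374731 to 18389176 on the plus strand.

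CHAC1, which breaks down glutathione and is induced by ATF4 and CHOP, had no such separation. CHAC1 was at 6.46, 8.01 and 6.18 FPKM with TGF-β and at 7.04, 6.01 and 7.32 FPKM with TFA, and the groups overlapped. Its fitted difference was 0.02 (interval -0.42 to 0.45). SESN2, a sestrin that restrains the growth kinase mTORC1, was the least abundant ATF4 target at a mean of 2.06 FPKM, with a fitted difference of -0.12 (interval -0.49 to 0.26).

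**Figure D3:**
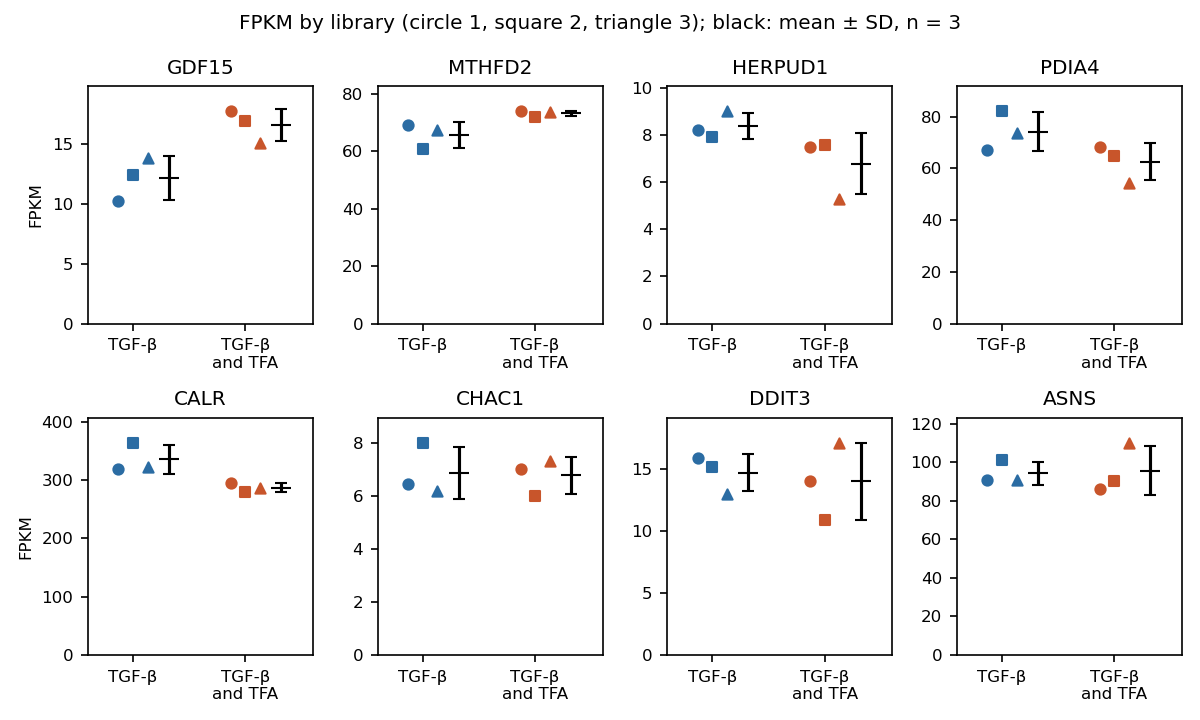
FPKM of 8 genes in each library, with the mean ± SD of 3 libraries in black. The groups do not overlap for GDF15 and MTHFD2 (TFA higher) or for HERPUD1 and CALR (TFA lower), and they overlap for PDIA4, CHAC1, DDIT3 and ASNS. The 8 genes are a selection rich in genes without overlap. In FPKM this held for 5 of all 33 genes (PDIA6 is not drawn), against 7.95% of all tested genes.

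The enzymes of amino acid and one-carbon metabolism were abundant and narrowly spread. PSAT1, of the serine synthesis pathway, was at 201, 212 and 200 FPKM with TGF-β and at 212, 207 and 196 FPKM with TFA. With a fitted difference of 0.04 (interval -0.24 to 0.31), PSAT1 had one of the tightest intervals of the 33 genes. ASNS, the asparagine synthetase that serves as a standard readout of amino acid shortage, was at 90.7, 101 and 90.9 FPKM against 86.2, 90.4 and 110 FPKM with TFA. TGFb_TFA 3 was the highest library for ASNS and TGFb 2 the next. The difference was 0.07 (interval -0.35 to 0.48), and it was -0.14 without TGFb_TFA 3 and 0.13 without TGFb 2. ASNS shares 1985 of its 4455 exon bases with the transcript gene AC079781 on its strand, whose level was 1.65 to 3.25 FPKM.

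MTHFD2, the mitochondrial folate enzyme, was at 69.1, 60.6 and 67.2 FPKM with TGF-β and at 73.8, 72 and 73.6 FPKM with TFA. Its groups did not overlap, yet the fitted difference was small (0.19, interval -0.11 to 0.49, unadjusted p = 0.173 in edgeR). PHGDH, which makes the first committed step from glycolysis to serine, had 0.15 (interval -0.19 to 0.48). SHMT2, the mitochondrial serine hydroxymethyltransferase, had -0.08 (interval -0.43 to 0.27). PSPH, which releases serine in the last step, had 0.15 (interval -0.18 to 0.49). Reads could be split between PSPH and its pseudogene PSPHP1, which was listed at 12.8 to 24.1 FPKM, close to the 20.4 to 24.8 FPKM of PSPH itself. In estimated counts the pseudogene held far less, 238 to 429 per library beside 4261 to 4943 for PSPH. Of these 6 enzymes, 5 were fitted above 0 with all libraries and 3 without TGFb_TFA 3.

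All 4 amino acid transporters were fitted below 0, but 3 of the 4 were fitted above 0 without TGFb_TFA 3. SLC7A5, the LAT1 carrier of large neutral amino acids, was at 26.8, 32.5 and 41.3 FPKM with TGF-β and at 38.4, 33.5 and 19.6 FPKM with TFA. The first 2 TFA libraries lay inside the TGF-β range, and TGFb_TFA 3 lay below all others. SLC7A1, the cationic amino acid carrier, showed the same order, at 6.21 and 5.88 FPKM in TGFb_TFA 1 and 2 but 2.84 FPKM in TGFb_TFA 3. SLC38A2, the SNAT2 carrier that rises on amino acid shortage, was also lowest in TGFb_TFA 3, at 24.6 FPKM. It was at 44.6 and 44.7 FPKM in TGFb_TFA 1 and 2. Their fitted differences were -0.13, -0.14 and -0.13, with intervals that held 0, and became 0.06, 0.09 and 0.05 without TGFb_TFA 3. SLC3A2, the CD98 heavy chain that pairs with SLC7A5, had -0.07 (interval -0.38 to 0.24) and -0.12 without that library.

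The sensors of the UPR and XBP1 spanned a wide range of levels, with no group apart from the other. ERN1, the IRE1 gene, had the lowest level of the set, 0.254 to 0.544 FPKM over the 6 libraries, and a fitted difference of -0.10 (interval -0.76 to 0.56). EIF2AK3, the PERK gene, was at 2.93, 2.01 and 2.58 FPKM with TGF-β and at 2.98, 3.34 and 1.66 FPKM with TFA. TGFb_TFA 3 was the lowest and TGFb_TFA 2 the highest library for EIF2AK3, and the fitted difference was 0.10 (interval -0.44 to 0.63). Without both TGFb 1 and TGFb_TFA 3 the value of EIF2AK3 was 0.41 (interval 0.01 to 0.80), with an adjusted p of 0.887 in edgeR. ATF6 had 0.12 (interval -0.20 to 0.44), at 12.2 to 14.3 FPKM. XBP1 was at 54.8, 60.6 and 55.9 FPKM against 50.7, 54.1 and 58.6 FPKM with TFA, a fitted difference of -0.03 (interval -0.38 to 0.33), and its spliced form was not measured.

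Among the targets of ATF6 and XBP1, 7 of 11 were fitted below 0 and 4 above, and none was called. In limma on log2(FPKM + 0.5), 9 of the 11 were fitted below 0, and in DESeq2 7. HERPUD1, which organises the ER-associated degradation complex and carries both an ERSE-II and a C/EBP-ATF element upstream, had the lowest fitted value. Its level was 8.19, 7.92 and 8.99 FPKM with TGF-β and 7.48, 7.56 and 5.29 FPKM with TFA. Every TFA library lay below every TGF-β library, and TGFb_TFA 3 was far below the other TFA libraries. HERPUD1 was fitted at -0.28 with an SE of 0.13 (interval -0.59 to 0.02). Its unadjusted p was 0.0659 in edgeR and 0.0371 in DESeq2, and the adjusted p-values were 0.9997 and 0.9998. Without TGFb_TFA 3 it was -0.20 (interval -0.45 to 0.05), and with each library's length trend removed -0.27 (interval -0.52 to -0.02, adjusted p = 0.9999 in edgeR). SEL1L, the partner of the ubiquitin ligase of this pathway, had the widest interval of the 33 genes (-0.83 to 0.57), with 3.41 FPKM in TGFb_TFA 3 against 7.79 and 8.06 FPKM in the other TFA libraries. EDEM1, which routes misfolded glycoproteins to degradation, had 0.13 (interval -0.32 to 0.58).

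Of the 8 chaperones and folding enzymes, 5 were fitted below 0, among them the most abundant, CALR, CANX, PDIA6 and PDIA4. CALR, the lectin chaperone calreticulin, was at 320, 364 and 323 FPKM with TGF-β and at 295, 280 and 287 FPKM with TFA. In FPKM the groups of CALR did not overlap, while in CPM TGFb_TFA 3 lay within the TGF-β range. The fitted difference was -0.19 (interval -0.50 to 0.12), and -0.27 (interval -0.52 to -0.02, adjusted p = 0.9992 in edgeR) without TGFb_TFA 3. PDIA6, a disulfide isomerase, was at 121, 122 and 121 FPKM against 115, 116 and 111 FPKM with TFA, again without overlap in FPKM and with overlap in CPM. The difference of PDIA6 was small (-0.06, interval -0.33 to 0.21). PDIA4, another disulfide isomerase, was at 66.9, 82 and 73.6 FPKM against 68.1, 64.9 and 54.5 FPKM, with overlap in FPKM but not in CPM. Its fitted difference was -0.22 (interval -0.53 to 0.08).

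The other folding genes gave no common direction in the main fit. Of all 8 folding genes, 5 were fitted below 0 in the main fit and in DESeq2. Without TGFb_TFA 3, and in limma on log2(FPKM + 0.5), 7 of the 8 were. CANX, the membrane-bound partner of calreticulin, had -0.09 (interval -0.38 to 0.21). HYOU1, an ER chaperone of the HSP70 family, was at 14.4 and 14.7 FPKM in TGFb_TFA 1 and 2, inside the TGF-β range of 12 to 15.7 FPKM, and at 7.44 FPKM in TGFb_TFA 3. Its fitted difference was -0.16 (interval -0.67 to 0.35), and 0.04 without that library. SDF2L1, the shortest transcript of the set and a strongly inducible partner of ER chaperones, was at 18.1, 26.4 and 18 FPKM with TGF-β and at 18.7, 24.2 and 27.7 FPKM with TFA. SDF2L1 had 0.22 (interval -0.35 to 0.80) with all libraries and -0.0040 without TGFb_TFA 3. MANF, a secreted ER-stress protein, was at 40.2, 39.7 and 40 FPKM against 38.4, 38.5 and 40.6 FPKM, with a fitted difference of 0.01 (interval -0.30 to 0.32). CRELD2, which is induced with MANF, had 0.00 (interval -0.36 to 0.36).

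Over the 33 genes, groups did not overlap in CPM for 4, namely GDF15 and MTHFD2 on the higher side and HERPUD1 and PDIA4 on the lower side. The same held for 7.91% of all tested genes (4.58% higher and 3.33% lower). In FPKM it held for 5 (GDF15, MTHFD2, HERPUD1, PDIA6 and CALR), against 7.95% of all tested genes (4.22% higher and 3.73% lower). The count in CPM was 11 without TGFb_TFA 3 and 10 without TGFb 2, where 19.9% and 18.9% of all tested genes were without overlap. The direction of the fitted value was the same in all alternative settings for 9 genes (17 settings, or 16 for SESN2, which a filter on mean FPKM left out). TRIB3, GDF15, MTHFD2 and ATF6 stayed above 0, and SESN2, HERPUD1, PDIA4, PDIA6 and CALR stayed below 0. The other 24 changed sign under at least 1 setting.

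Among the shortest and the longest of the 33 genes, the lean of single libraries followed length as it did over all genes. Length is given relative to the median tested gene, from the ratio of count to FPKM. The 11 shortest of the 33 genes (relative length 0.22 to 0.62) had a median deviation of 0.25 in TGFb_TFA 3 (log2 CPM, against each gene's mean), and 8 of them were highest in that library. The 11 longest (1.07 to 2.27) had -0.40 there, and 6 of them were lowest in it. In TGFb_TFA 1 the medians of these genes were -0.07 and 0.14. Of the 11 longest, PHGDH (0.23), ATF6 (0.23) and CRELD2 (0.17) lay above 0 in TGFb_TFA 3, and of the 11 shortest CEBPB lay below it (-0.03). Genes of middle length lay far on both sides in TGFb_TFA 3. SLC7A5 (relative length 0.98) was at -0.50 and HERPUD1 (1.05) at -0.33, but ASNS (1.01) at 0.39 and MTHFD2 (0.99) at 0.25. With each library's trend along length removed, medians were -0.03 for the ATF4 targets and -0.06 for the ATF6 and XBP1 targets, and 29 of 33 intervals lay within 1.5-fold. The share of the length trend in any 1 gene's difference was not tested.

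**Figure D4:**
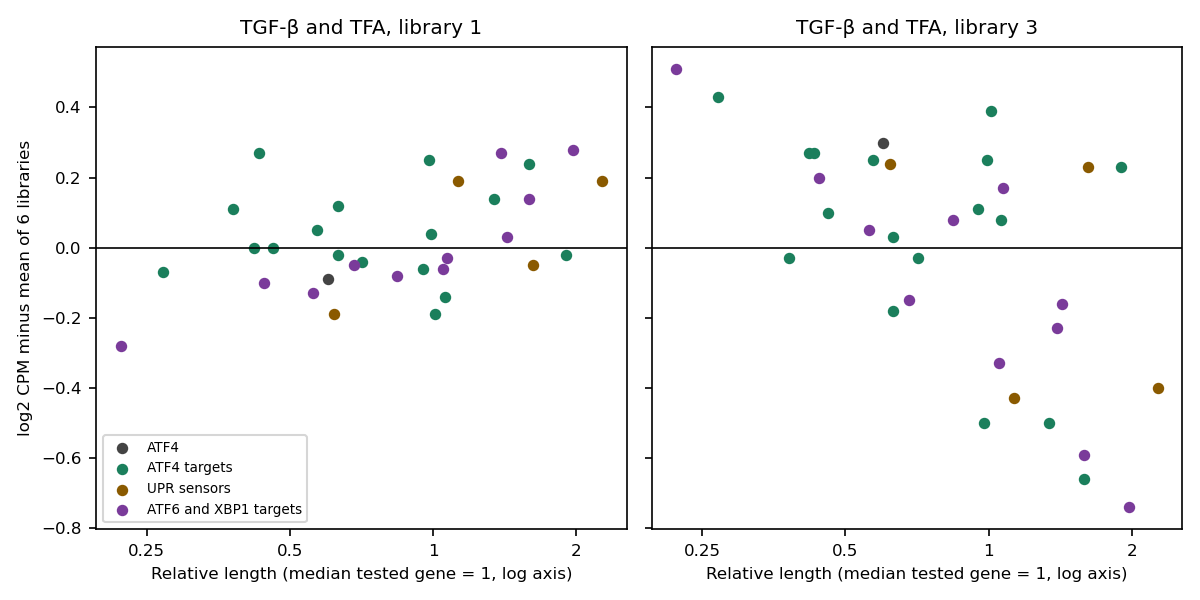
Difference of each of the 33 genes from its mean over the 6 libraries (log2 CPM, vertical) against relative length (horizontal log axis, median tested gene at 1) in TGFb_TFA 1 and TGFb_TFA 3. In TGFb_TFA 3 most of the shortest transcripts, such as SDF2L1 (0.51), sit above 0, and most of the longest, such as SEL1L (-0.74), below. Genes near a relative length of 1 lie on both sides there. In TGFb_TFA 1 the points stay between -0.28 and 0.28.

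The wider pathway was read from 7 further lists of 145 genes, all of which were tested. None was called by edgeR or DESeq2, and 0 had an unadjusted p under 0.05 in edgeR, against 1.83% of all tested genes. The 30 other ATF4 targets had a median of 0.04. Their most abundant members were SLC1A5, a glutamine carrier, at 82.1 ± 9.23 FPKM without TFA and 67.5 ± 9.47 FPKM under TFA (SD, n = 3), and EIF4EBP1, a brake on translation (0.16, interval -0.26 to 0.58). SLC1A5 also had the lowest unadjusted p of that list (-0.26, interval -0.58 to 0.06). SLC7A11, the cystine carrier, followed with 0.55 (interval -0.18 to 1.29), at 9.76 and 10.5 FPKM in TGFb_TFA 1 and 2 but 4.43 FPKM in TGFb_TFA 3.

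The 20 cytosolic tRNA synthetases, many of which ATF4 can raise, had a median of -0.01, from -0.26 (VARS1) to 0.15. TARS1 (0.04, interval -0.23 to 0.31) and NARS1 (0.08, interval -0.20 to 0.37) were the most abundant, and MARS1 had -0.15 (interval -0.49 to 0.19). The 13 genes of the other eIF2 kinases, the eIF2 subunits and the exchange factor eIF2B had a median of 0.02, and 13 of 13 intervals lay within 1.5-fold. EIF2S2 (0.01, SE 0.12) and EIF2S3 (0.03, SE 0.13) were the most abundant of them, and EIF2B1 (0.06) and EIF2B4 (0.08) had the lowest p.

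The 23 other ER chaperones and folding enzymes had a median of 0.02. HSPA5, the master ER chaperone BiP, was at 233, 210 and 250 FPKM with TGF-β and at 223, 216 and 163 FPKM with TFA (-0.18, interval -0.47 to 0.11). HSP90B1, the ER form of HSP90, had -0.21 (interval -0.66 to 0.24), PPIB, a prolyl isomerase, 0.08, and FKBP14, another one, 0.43 (interval -0.12 to 0.98). The 20 other degradation genes had a median of -0.01, with VCP, the extraction ATPase, at -0.13 (interval -0.41 to 0.14), UBE2J1 at -0.10, UBE2G2 at 0.18 and DERL2 at 0.26. The 27 translocation and secretory genes had a median of 0.06, with the oligosaccharyltransferase subunit OSTC at 0.29, the translocon subunit SEC61G at 0.22, SERP1 at 0.18 and SRP19 at 0.24. Both OSTC and SEC61G have short transcripts and were highest in TGFb_TFA 3 (156 and 124 FPKM). The 12 other sensors and processing genes had a median of 0.00, with TMBIM6 at -0.02, the XBP1 ligase RTCB at 0.00, BLOC1S1, a transcript that IRE1 is known to cut, at 0.24 (interval -0.44 to 0.91), and CREB3L1 too low to place (interval -1.62 to 3.63).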

How the data were processed

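Poly(A) RNA of 6 libraries was sequenced from dUTP-marked libraries, per the labels' protocols. Per the submitters' processing notes, cutadapt 1.9, HISAT2 2.0.4, StringTie 1.3.4d and GRCh38 were used, each in a role not given in the sources used here. One table was deposited by the authors, a table of genes with FPKM and estimated counts for each library. The deposited estimated counts are whole numbers. For single-exon genes 100% of counts could be rebuilt from FPKM and length (to 1 count or 1%), and a count of 4 was more common than 3 or 5, so they may come from coverage and overstate the number of fragments. Tests therefore lean on the spread between libraries.

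The counts were tested in edgeR 4.0.16 (R 4.3.3): filterByExpr, TMM, estimateDisp, glmQLFit and glmQLFTest with group as the only term, 2-sided, with Benjamini-Hochberg adjustment over 18265 genes and a call at an adjusted p under 0.05. Each SE is the fitted log2 fold change over the root of its F. CPM are depth-scaled counts on the TMM-scaled library size. On simulated data (200 changed genes among 18265), the share called was 0.5% at 1.5-fold, 46% at 2-fold and 96% at 4-fold. Alternatives, 17 in all, were DESeq2 1.42.0, its size factors in edgeR, no filter, a mean FPKM of at least 5, limma 3.58.1 on log2(FPKM + 0.1, 0.5 or 1), a replicate block, removal of each library's length trend, counts divided by 4, leaving out each library, and leaving out TGFb 1 with TGFb_TFA 3. All 33 genes are named and, of each wider list, those with the 2 highest mean FPKM and the 2 lowest unadjusted p. Members and lists were chosen with earlier results of these data known. Shared exon bases come from GENCODE 29 (97.3% of identifiers matched) and promoters from RefSeq (GRCh38.p14).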

Additional observations from a re-analysis of the deposited data

How the results depend on the processing

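None of the 33 genes was called under any of the 17 alternative settings. Over all tested genes, 2 were called in the main analysis, 13 by DESeq2 and 1 with the replicate block, that is, with the library number as a term. Leaving out 1 library gave 1 to 3 called genes (1 without TGFb 2, TGFb_TFA 1 or TGFb_TFA 2, and 3 without TGFb_TFA 3). Whether equal numbers pair the libraries could not be settled. Deviations from the group means correlated at 0.147, -0.47 and -0.446 for libraries 1, 2 and 3, and at -0.496 to 0.575 for unequal numbers. Deviations from a mean of 3 libraries are tied to one another, so these values cannot exclude pairing. The block changed no call among the 33 genes. With the block 13 of the 33 intervals lay within 1.5-fold, beside 23 in the main analysis and 14 to 27 without 1 library, and the unadjusted p of HERPUD1 was 0.176. The median of the ATF4 targets ran from 0.0005 to 0.05 without 1 library, beside -0.01 with all, and that of the ATF6 and XBP1 targets from -0.14 to -0.07. In CPM, groups did not overlap for 4 to 11 of the 33 genes without 1 library (10 without TGFb 2, 11 without TGFb_TFA 3). Without TGFb 1 and TGFb_TFA 3 this held for 16, against 37.7% of all tested genes. In simulated data 0.5% of 1.5-fold differences were called, so differences of that size may mostly go uncalled with 3 libraries a group. The simulated counts had no length lean of single libraries and held 200 changed genes picked at random. Their share is thus only a rough guide for the 33 genes.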
